A study of Rattus norvegicus with 4 samples.

Results

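The genes described are 8 genes of cholesterol synthesis and its feedback control: Hmgcs1, Idi1, Fdft1, Sqle, Lss, Cyp51 and Dhcr7, which encode enzymes, and Insig1, which encodes a sterol sensor's partner. They were taken by name, with synonyms resolved by Entrez identifier, from features that the platform annotation assigns to exactly 1 gene. This gave 7 measured genes on 13 features, among 14878 genes on 23535 such features in all. Hmgcs1 was not analysed here. Measurements were made in adult male Wistar rats, in the striatum, through which cortical input enters the basal ganglia. The study used 4 rats under pentobarbital anaesthesia. In the irradiated rats a gamma knife, an instrument that focuses gamma rays on a small target, gave a central maximum dose of 60 Gy over 30 min through a 4 mm collimator to the left striatum, and tissue was taken 16 h later. RNA of the irradiated left striatum was hybridised against RNA of the left striatum of control rats, and RNA of the opposite, un-irradiated striatum of the same treated rats against RNA of the control right striatum. The labels do not say what the control rats received or how many rats stand behind each RNA.

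Each side was measured on 2 two-colour arrays that carried the same source names with the dyes exchanged, so each side is 1 replicate and no p-value, standard deviation or test of a difference can be given. Values are log2 ratios of experimental over control RNA. Features of a gene were averaged within an array, the value of a side is the mean of its 2 arrays, and ± gives how far each array lay from that mean. This ± holds technical variation only, dye effects included, and nothing of the variation between animals. A gene is called higher or lower when both arrays of a side put it beyond 1.5-fold, which is a log2 ratio of 0.585, with the same sign. The arrays report ratios, not levels, so the tissue label could not be set against the level of its markers.

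Cholesterol is built from acetyl-CoA through mevalonate and isoprenoid phosphates to squalene, which is closed to lanosterol and then trimmed to cholesterol. The brain makes nearly all of its own cholesterol because lipoproteins of the blood do not cross the blood-brain barrier; myelinating oligodendrocytes and astrocytes are its main producers. Transcription of the pathway is driven by the factor SREBP-2, which Insig proteins and the escort protein SCAP hold in the endoplasmic reticulum while sterol is plentiful, and which is released when sterol runs short. Insig1 is itself a target of SREBP, so its transcript and those of the enzymes are commonly read together.

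Promoter windows from RefSeq (GRCr8 build, 250 bases before to 50 bases after the gene's start) were available for 5 of the 7 measured genes, Cyp51, Dhcr7, Idi1, Insig1 and Lss. Those of the 3 genes with the lowest left values are shown, 5′ to 3′ on the gene's own strand, because SREBP is known to act at such promoters together with the factors NF-Y and Sp1. They lie at chr1:208444184-208444483 on the plus strand (Dhcr7), chr17:66547475-66547774 on the minus strand (Idi1) and chr4:8057720-8058019 on the minus strand (Insig1). Capitals mark the letters of an NF-Y box (CCAAT) or an Sp1 box (GGGCGG) on either strand.
Dhcr7: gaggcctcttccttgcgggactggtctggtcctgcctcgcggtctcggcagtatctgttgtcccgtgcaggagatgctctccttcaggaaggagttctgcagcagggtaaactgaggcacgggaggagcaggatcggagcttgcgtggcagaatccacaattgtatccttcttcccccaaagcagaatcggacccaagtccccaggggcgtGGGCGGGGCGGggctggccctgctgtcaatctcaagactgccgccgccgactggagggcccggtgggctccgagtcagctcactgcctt
Idi1: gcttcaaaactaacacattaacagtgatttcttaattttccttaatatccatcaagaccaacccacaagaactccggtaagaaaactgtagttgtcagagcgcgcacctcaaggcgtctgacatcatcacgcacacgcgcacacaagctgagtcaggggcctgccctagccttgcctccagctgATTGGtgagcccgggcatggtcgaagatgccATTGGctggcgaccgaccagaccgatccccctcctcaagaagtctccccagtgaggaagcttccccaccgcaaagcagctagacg
Insig1: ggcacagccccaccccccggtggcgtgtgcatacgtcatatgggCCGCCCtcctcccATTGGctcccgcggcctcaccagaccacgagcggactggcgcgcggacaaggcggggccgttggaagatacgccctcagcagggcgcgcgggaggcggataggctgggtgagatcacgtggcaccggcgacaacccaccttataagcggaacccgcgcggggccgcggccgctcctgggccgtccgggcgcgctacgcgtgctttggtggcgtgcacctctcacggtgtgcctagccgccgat

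In the Dhcr7 window the Sp1 letters occurred in a pair of overlapping copies that began 39 and 34 bases before the start. The Idi1 window held the NF-Y letters on the opposite strand at 66 and 35 bases before the start and no Sp1 letters. In the Insig1 window an Sp1 box stood at 206 and an NF-Y box at 193 bases before the start, both on the opposite strand. Over the 5 windows, 3 held an NF-Y box, against 37.5% of all 33469 RefSeq promoter windows of that length, and 4 held an Sp1 box, against 33.1%. The letters TCACNCCAC, a form of the sterol regulatory element, were in 0 of the 5 windows and in 1.12% of all windows. These are matches of letters and show no binding.

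In the irradiated left striatum the cholesterol genes lay slightly below control, and none of them passed 1.5-fold. The means ran from -0.34 for Dhcr7 to 0.09 for Fdft1, with a median of -0.22, where the median of all genes was 0.00. Of the 7 measured genes 0 were called lower, against 1.03% of all genes, and 0 were called higher, against 1.18%. A looser count, chosen after the values were seen, takes genes below 0 on both arrays: 5 of the 7 were, against 23.0% of all genes. These 5 were Dhcr7, Idi1, Insig1, Cyp51 and Sqle. The signs rest on taking the deposited ratios as not yet turned for the dye exchange, which the table does not state. Taken as already turned, 1 of the 7 was below 0 on both left arrays, against 25.9% of all genes. The left median was then 0.053, against 0.015 for all genes.

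By the order of the pathway, Idi1 comes first; it isomerises the isoprenoid building block. Its gene value was -0.24 on left array 1 and -0.35 on left array 2, a mean of -0.30 ± 0.05, or 1.23-fold below control. Its features, both assigned to the same RefSeq mRNA, read -0.22 and -0.27 on array 1 and -0.35 and -0.35 on array 2, so the pair gave the same picture. Fdft1, squalene synthase, takes the first step committed to sterols. It read 0.10 and 0.08 on the left arrays and was the member above control on both of them, at 0.09 ± 0.01.

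Sqle, squalene epoxidase, is a rate-limiting enzyme of the sterol branch. Its values were -0.14 and -0.25 on left arrays 1 and 2, a mean of -0.20 ± 0.05. Lss, which closes the ring to lanosterol, read -0.25 on array 1 and 0.03 on array 2, so its mean of -0.11 ± 0.14 has no common direction. Cyp51 removes a methyl group from lanosterol. It averaged -0.10 and -0.35 on the left arrays, a mean of -0.22 ± 0.12, but its 2 features differed: the RefSeq mRNA feature stood at -0.40 ± 0.17 and the feature from an expressed sequence tag at -0.04 ± 0.08.

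Dhcr7 reduces the immediate precursor to cholesterol itself. It was lowest of the 7 on the left, with -0.42 on array 1 and -0.26 on array 2, a mean of -0.34 ± 0.08 or 1.26-fold below control; with array 2 as deposited its mean was -0.08, with 34.0% of genes lower, and Lss was lowest, at -0.14. In the turned values 8.95% of all genes had a lower left mean than Dhcr7, 11.0% a lower one than Idi1 and 18.8% a lower one than Sqle, so these values lie within the lower part of the general distribution and not at its edge. Insig1, the feedback protein, had 5 features whose left means ran from -0.29 to -0.08, all below 0 on both arrays. Its gene value was -0.13 on array 1 and -0.32 on array 2, a mean of -0.22 ± 0.10.

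In the order of left means, each gene's array values overlapped those of the next for 5 of the 6 neighbouring pairs. Fdft1 alone was apart from its neighbour, Lss. The 2 left arrays differed little for these genes: the median ± was 0.08, against 0.17 over all genes.

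**Figure D1:**
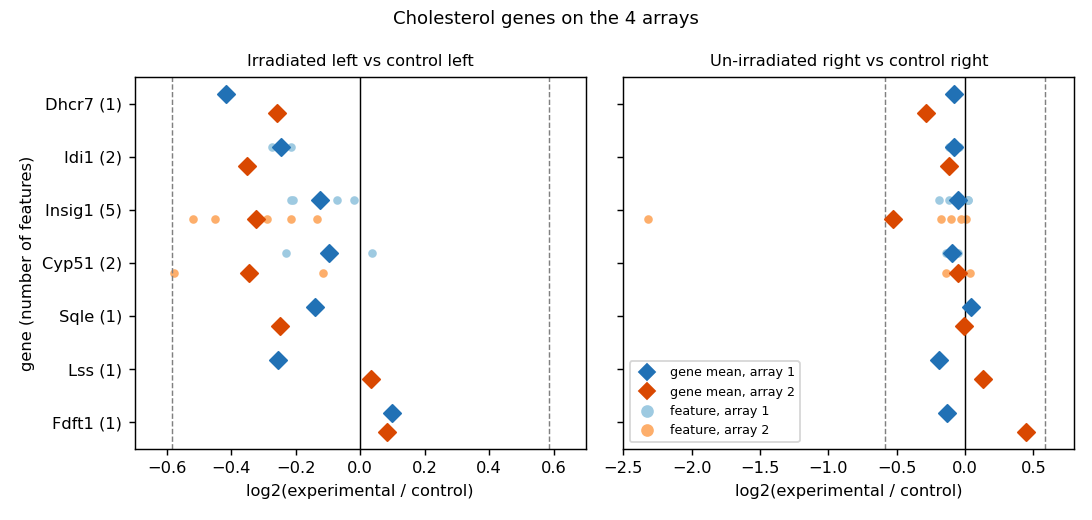
Log2 ratios of the 7 measured cholesterol genes on the left and right arrays (horizontal axes of different range); diamonds are gene means per array, small dots single features, dashed lines 1.5-fold. On the left, 5 genes lie below 0 on both arrays, and on the right 1 Insig1 feature on array 2 lies far from all other points.

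On the un-irradiated right side the median of the same genes was nearer to control, although Insig1 and Fdft1 had means farther from 0 than on the left. The means ran from -0.29 for Insig1 to 0.16 for Fdft1, with a median of -0.07, against -0.01 for all genes. Again 0 of 7 were called lower (1.46% of all genes) and 0 higher (1.71%). Below 0 on both arrays were 4 of the 7, against 21.6% of all genes. The count was 3 of 7 with the median over features (21.7% of all genes) and with the feature of largest absolute mean (24.0%).

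The 4 below 0 on both right arrays, with features averaged, were Dhcr7, Idi1, Cyp51 and Insig1. Dhcr7 read -0.08 and -0.28 on right arrays 1 and 2, a mean of -0.18 ± 0.10. Idi1 read -0.08 and -0.12, a mean of -0.10 ± 0.02, and Cyp51 -0.09 and -0.05, a mean of -0.07 ± 0.02. Insig1 was lowest of the 7 on this side, with -0.05 and -0.52, but this place rests on 1 feature. That feature, from an expressed sequence tag, read 0.01 on array 1 and -2.32 on array 2, while the RefSeq mRNA features of Insig1 ranged from -0.11 to -0.04 in their means. With RefSeq mRNA features alone the right value of Insig1 was -0.07 ± 0.00 in place of -0.29 ± 0.24.

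The remaining 3 had no common direction on the right. Sqle read 0.04 and -0.01, a mean of 0.02 ± 0.03, and Lss -0.19 and 0.13, a mean of -0.03 ± 0.16. Fdft1 read -0.13 and 0.45, so its mean of 0.16 ± 0.29 is smaller than its distance between dyes. All 6 neighbouring pairs in the right order overlapped.

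Left and right were then set against each other within a dye orientation, array 1 with array 1 and array 2 with array 2. Left minus right, the differences had a median of -0.15 over the 7 genes, against 0.02 over all genes, and ran from -0.21 for Sqle to 0.06 for Insig1. Past 1.5-fold in this difference were 0 of 7 lower (2.26% of all genes) and 0 higher (2.59%). Below 0 in both orientations were 4 of 7, namely Sqle, Idi1, Cyp51 and Lss, against 27.1% of all genes. With the arrays centred the count was 3 of 7, against 27.6% of all genes. It was 5 of 7 with the median over features and also with the RefSeq mRNA features, each against 27.2% of all genes.

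Sqle had differences of -0.18 and -0.24 in the 2 orientations, a mean of -0.21 ± 0.03. For Idi1 they were -0.17 and -0.23, a mean of -0.20 ± 0.03, and for Lss -0.06 and -0.09, a mean of -0.08 ± 0.02. For Cyp51 they were -0.003 and -0.30, a mean of -0.15 ± 0.15, the first of them near 0. For Dhcr7, which lay below control on both sides, they were -0.33 and 0.03, so its sides were not separated beyond the dye spread. For Insig1 the sign turned with the features used: the difference was 0.06 ± 0.14 over all 5 features and -0.13 ± 0.06 over the RefSeq mRNA features. With 1 replicate a side, none of these differences was tested.

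The other enzymes of the pathway also lay mostly below control on the left. Of 15 listed, 13 were measured, and 11 of these were below 0 on both left arrays with 0 above 0 on both; their median was -0.17. The 11 are 84.6%, against 23.0% of all genes; 0 of the 13 were called, where 1.03% of all genes were called lower and 1.18% higher. The 6 measured enzymes among the 8 genes and these 13 together make 19, of which 15 were below 0 on both left arrays (78.9%, against 23.0% of all genes) and 1, Fdft1, above 0 on both, with a median of -0.20. With array 2 as deposited, 3 of the 19 were below 0 on both left arrays, against 25.9% of all genes, and the median was 0.00. On the right, in the turned values, 7 of the 19 were below 0 on both arrays (36.8%, against 21.6% of all genes), with a median of -0.03. In the difference of the sides 13 of the 19 were below 0 in both orientations (68.4%, against 27.1% of all genes) and 0 above, with a median of -0.20. The left counts of 11 and 15 and the 13 in the difference include Ggps1, an enzyme of the non-sterol branch. Ggps1 read -0.07 and -0.54 on the left arrays, and its differences were -1.21 and -0.24. These lists, like the 8 genes, were drawn up with earlier results of these data known, and their counts are descriptions.

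Nearest to the 1.5-fold line among the enzymes, and picked out after their values were seen, were 2 that act between lanosterol and cholesterol. Hsd17b7, a sterol ketoreductase, read -0.52 and -0.59 on the left arrays, a mean of -0.56 ± 0.04, and 0.00 ± 0.20 on the right; its 2 features had left means of -0.80 and -0.31. Tm7sf2, a sterol reductase, read -0.40 and -0.69 on the left, a mean of -0.55 ± 0.14, and -0.11 ± 0.07 on the right. Upstream, the mevalonate decarboxylase Mvd read -0.38 and -0.32 on the left, a mean of -0.35 ± 0.03, and -0.08 ± 0.03 on the right.

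**Figure D2:**
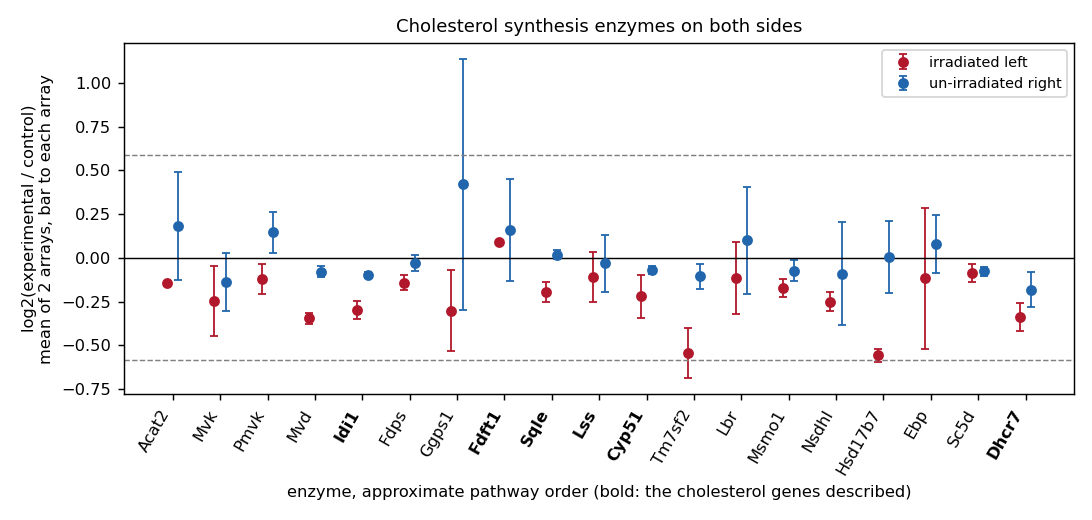
Mean log2 ratio of each measured enzyme of the cholesterol lists, left side and right side, in approximate pathway order; bars reach to each array and dashed lines mark 1.5-fold. Ggps1, counted among them, belongs to the non-sterol branch of the pathway. On the left 15 of the 19 means have both arrays below 0 (23.0% of all genes), and Fdft1 is the enzyme with both above 0. With array 2 as deposited, 3 of the 19 are below 0 on both, against 25.9% of all genes.

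Genes of sterol sensing and uptake lay on both sides of control. The genes named here that were not called were chosen after their values were seen, apart from Srebf2. Of 18 listed, 16 were measured. On the left 5 were below 0 on both arrays (31.3%, against 23.0% of all genes) and 3 above, with a median of 0.00. On the right 7 were below 0 on both arrays (43.8%, against 21.6% of all genes) and 2 above, with a median of -0.08. Stard4, which carries cholesterol through the cytosol and is a known target of SREBP-2, was the 1 gene called, where 1.03% of all genes were called lower: it read -0.80 and -0.81 on the left arrays, a mean of -0.80 ± 0.00, from 1 feature. On the right it read -0.41 and -0.02, a mean of -0.21 ± 0.19. Srebf2, which encodes SREBP-2, had 0.54 and -0.47 on the left arrays, a mean of 0.04 ± 0.51, so its gene value gave no reading of direction there. On the right Srebf2 read -0.48 and -0.20, a mean of -0.34 ± 0.14. Its 2 features, both assigned to the same RefSeq mRNA, differed. The first read -0.02 and -0.21 on the left arrays and -0.20 and -0.64 on the right arrays. The second read 1.11 and -0.73 on the left and -0.76 and 0.23 on the right, so its sign changed between arrays on each side. The SREBP escort Scap had a left mean of -0.10 ± 0.00 and a right mean of -0.04 ± 0.02. Insig2, the second Insig protein, stood on the other side of 0 from Insig1, with 0.30 and 0.14 on the left arrays, and at 0.02 ± 0.08 on the right. Among the receptors for lipoproteins, Lrp8 had a left mean of -0.29 ± 0.14, Scarb1 -0.21 ± 0.13, Lrp1 0.00 ± 0.04 and Vldlr 0.16 ± 0.40, none of them called on either side.

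For efflux, esterification and turnover of sterol all 15 listed genes were measured, with a left median of 0.03; 3 were below (20.0%, against 23.0% of all genes) and 6 above 0 on both left arrays. Ch25h, whose product is an oxysterol that keeps SREBP inactive, was the 1 gene called, where 1.18% of all genes were called higher. It read 0.76 and 0.99 on the left arrays, a mean of 0.88 ± 0.12, and 0.44 and 0.54 on the right, a mean of 0.49 ± 0.05 that did not pass; the left was the higher by 0.39 ± 0.06. Abca1, the main exporter of cholesterol to apolipoproteins, had a left mean of 0.39 ± 0.18 over 3 features that disagreed: its RefSeq mRNA feature stood at 0.64 and the others at 0.73 and -0.21. Of 14 genes of SREBP-driven fatty acid synthesis 4 were below (28.6%, near the 23.0% of all genes) and 2 above 0 on both left arrays, the median was -0.02 and 0 were called. The stearoyl-CoA desaturase Scd was lowest of them, with -0.94 and -0.36 on the left arrays. Its 2 features differed: the RefSeq mRNA feature read -0.93 and -0.72, past 1.5-fold on both left arrays, and the other -0.96 and -0.0001. With array 2 as deposited, neither Stard4 nor Ch25h was called, and on the left 0 genes of their lists were.

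Markers of several cell types also lay below control on the left, and in bulk tissue fewer cells of a type and less RNA per cell cannot be told apart. Of 8 astrocyte markers 6 were below 0 on both left arrays (median -0.33, means from -0.77 to 0.02), of 9 oligodendrocyte markers 4 (median -0.35, from -0.58 to 0.40), of 7 microglia markers 6 (median -0.48, from -2.67 to -0.18), of 10 projection neuron markers 5 (median -0.27, from -0.81 to 0.13) and of 7 endothelial markers 5 (median -0.19, from -0.43 to 0.02), against 23.0% of all genes. Of these lists, 2 astrocyte, 2 microglia and 1 projection neuron marker were called lower, where 1.03% of all genes were. The meningeal markers had the lowest left median, -0.66 (from -1.55 to 0.12), with 5 of 6 below 0 on both left arrays and 3 called lower. Of 7 cortex markers 2 were below 0 on both left arrays (median -0.06, from -0.68 to 0.32) and 1 was called lower. On the right, where the cholesterol genes had a median of -0.07, the oligodendrocyte markers had a median of -0.40 with 7 of 9 below 0 on both arrays, and the astrocyte markers -0.08 with 2 of 8. The microglia markers had a right median of -0.26 with 6 of 7 below 0 on both arrays, against 21.6% of all genes. Of them 1 was called lower there, where 1.46% of all genes were. The endothelial markers had a right median of -0.06 with 3 of 7 below 0 on both arrays. Left minus right, the median difference was 0.00 for the oligodendrocyte markers, -0.24 for the astrocyte markers, -0.14 for the microglia markers, -0.23 for the endothelial markers and -0.15 for the cholesterol genes. Below 0 in both orientations were 8 of 8 astrocyte, 4 of 7 microglia, 4 of 7 endothelial and 2 of 9 oligodendrocyte markers, against 27.1% of all genes. Of these, 1 astrocyte and 2 microglia markers were called lower, where 2.26% of all genes were. The median difference was -1.59 for the meningeal markers (5 of 6 called lower, against 2.26% of all genes), -0.78 for the cortex markers (3 of 7 called lower) and 0.37 for the projection neuron markers (2 of 10 called higher, against 2.59%). The right side also differed from its control in markers of region: 10 of 10 projection neuron markers were below 0 on both right arrays (21.6% of all genes), 6 of them called lower (1.46%), while 3 of 7 cortex markers and 4 of 6 meningeal markers were called higher (1.71%). The part of these markers in the values of the cholesterol genes was not tested.

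**Figure D3:**
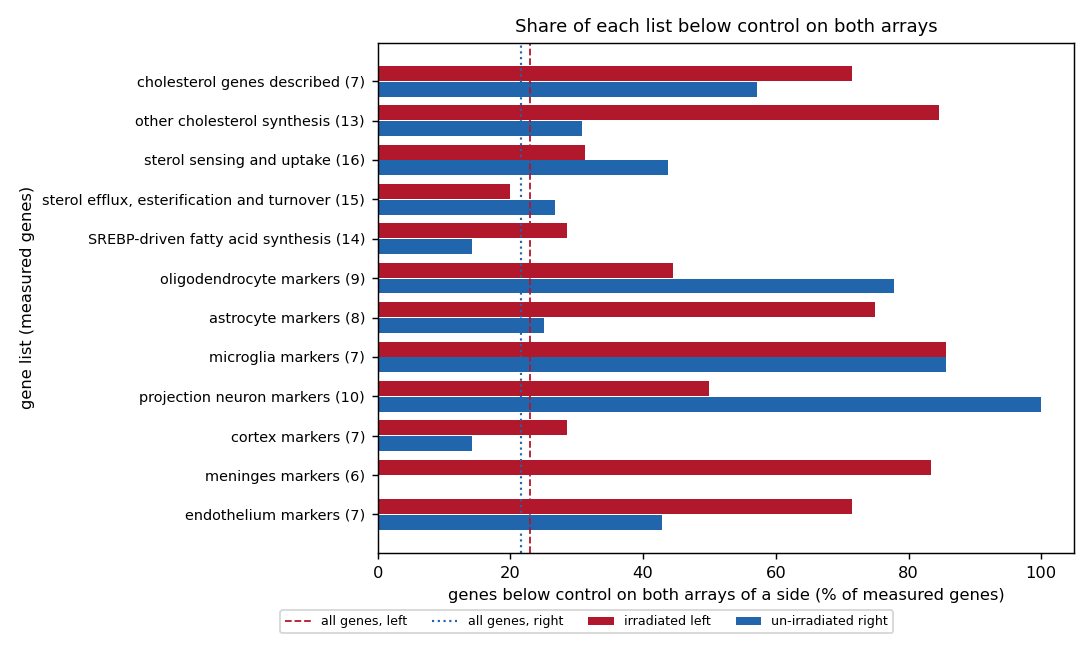
Percent of the measured genes of each list that lay below 0 on both arrays of a side, left and right; vertical lines give the share over all genes (23.0% left, 21.6% right), and the number of measured genes stands in brackets. The left bars of the cholesterol genes described and of the other synthesis enzymes reach 71.4% and 84.6%, beside astrocyte markers at 75.0% and microglia markers at 85.7%. With array 2 as deposited these are 1 of 7, 2 of 13, 1 of 8 and 1 of 7 genes, against 25.9% of all genes.

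The gene patterns nearest to a cholesterol gene were sought for Dhcr7, the member with the largest absolute mean over the 4 arrays, as the smallest Euclidean distance over the 4 array values. The nearest were Tprkb at a distance of 0.10, Acss1 at 0.11 and Prdx6 at 0.13. Of the other cholesterol genes the closest to Dhcr7 was Idi1 at 0.26 and the farthest Fdft1 at 0.96. With 4 values a gene, such nearness describes these arrays and no more.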

How the data were processed

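The study's 4 two-colour Agilent arrays were processed with Agilent Feature Extraction 8.1, per the submitters' processing notes; no label or header gives its settings. The deposited table holds 1 value for each of 43628 features and 4 arrays, none missing. These were taken to be log10 of red over green, as that software writes its ratios; base, direction and centring are not stated in the deposited table. Array medians as deposited (log10) were 0.00418, 0.00444, 0.00832 and 0.0111. Values were converted to log2, and array 2 of each side, labelled with the dyes exchanged, was given the opposite sign. The 2 feature readings of the p53 target Ccng1 bear on this choice: as deposited they were 0.615 and 0.600 on left array 1 and -0.615 and -0.584 on left array 2. Turned, Ccng1 read 2.02 and 1.99 on the left arrays and 1.32 and 1.35 on the right arrays. Taken as already turned, its 2 arrays would have opposite signs on each side. Turned, 6 of 10 projection neuron markers were called lower and 4 of 6 meningeal markers higher on the right. As deposited, 0 genes of any marker list were called on either side. The fatty acid list then held 1 gene called higher on each side, and the efflux list 1 called lower on the right. Over all features the arrays of a side correlated positively as deposited (r = 0.743 left, 0.666 right). Dye effects or values already turned would both give this, so the correlation does not settle the direction. Spot intensities were not used here, so background and saturation are unknown; precision is limited by the number of arrays.

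Of the features, 23535 had 1 gene in GEO's platform annotation, 48 several and 20045 none; only the first were named, with symbols updated by Entrez identifier from RefSeq (GRCr8) for 23488. The members and gene lists were chosen with earlier results of these data known. Named are all members, genes of the 4 sterol and fatty acid lists past 1.5-fold on both arrays, Srebf2, and the 3 genes nearest in pattern to 1 member; 3 others the rule names were not analysed here. Any other list gene given by name was chosen after its values were seen. Alternatives changed the averaging of features, the centring, the arrays used, the sign of array 2, the log base and the threshold. Computation used Python 3.11.15, numpy 2.4.6 and pandas 2.3.3, and the calling step was tested on simulated data. The shifts planted there were far larger than the values of the cholesterol genes, so that test does not bear on shifts as small as these.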

Additional observations from a re-analysis of the deposited data

How the results depend on the processing

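No cholesterol gene passed the size rule on either side, or in the difference, under any of the 10 alternatives run, among them 1.2-fold and 2-fold thresholds, each array by itself and array 2 left as deposited. The 2-fold threshold and the reading as log2 could add no call, because both make the rule stricter. With array 2 not turned, the reading in which the table already held turned values, the median over the 7 genes became 0.053 on the left, 0.019 on the right and 0.029 in the difference. The genes below 0 on both arrays then numbered 1, 2 and 2 in place of 5, 4 and 4, against 25.9%, 24.4% and 24.5% of all genes. The low values of the report therefore rest on turning array 2. The counts of the other lists under this reading were added after seeing the data. Values read as log2 already gave medians of -0.067, -0.021 and -0.045. The left median was -0.29 with the feature of largest absolute mean and -0.14 on array 1 alone; the right one was -0.044 with the median over features, -0.092 with the feature of largest absolute mean and -0.049 on array 2 alone; the difference was -0.074 on array 1 alone and -0.23 on array 2 alone. Centring the arrays and dropping Fdft1, the latter added after seeing the data as was the count below 0, left the medians within the spread of the 2 arrays. Without changing array 2, single gene values kept their sign on the left in all alternatives but array 2 alone, which turned 1 of 7. On the right, array 1 alone turned 1 of 7 and array 2 alone 2 of 7. In the difference, array 1 alone turned 2 of 7, and array 2 alone, the median over features and the RefSeq mRNA features each turned 1 of 7. No paired analysis was possible because each side has 1 replicate and no test was made.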
